A study of Mus musculus with 10 samples.

Results

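The axon injury and regeneration genes described here are genes that peripheral neurons, motor neurons among them, are known to switch on after their axon is cut. They were chosen by name, from a list of 10 symbols looked up in the deposited tables. Cap23 is an older name of Basp1, so the 10 names stand for 9 genes of the 51912 counted, and all 9 had counts. They are 3 transcription factors (Atf3, Sox11 and Klf6), 4 proteins of the growth cone and cytoskeleton (Gap43, Basp1, Stmn4 and Sprr1a), the stress response gene Gadd45a and the peptidase Ecel1.

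When a motor axon is severed, signals carried back to the cell body shift the neuron from transmission to growth. ATF3, which is near silent in intact motor neurons, is the standard marker of such an injured cell, and it pairs with JUN on DNA. SOX11 and KLF6 act beside them, GAP43 and BASP1 organise the membrane and actin of the growth cone, SPRR1A promotes neurite extension, and Ecel1 is known in rodents as a peptidase gene induced by nerve damage.

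The pools came from mice in which the human skeletal actin promoter, active in muscle fibres, drives neurturin (HSA-NRTN, transgenic), and from wild-type littermates with no transgene. Neurturin is a secreted ligand of the GDNF family, made here by muscle and not by the captured cells. The title of the series places the comparison between muscle neurturin and the identity of slow motor neurons, and no nerve injury is named in the labels. Each of the 10 libraries held about 50 lumbar motor neurons of 1 mouse, cut by laser from 12 µm frozen sections, 5 from HSA-NRTN and 5 from wild-type mice, with 3 females and 2 males in each group. Only cells with a nucleolus and an area above 200 µm2 were taken, so small motor neurons were left out, and the age of the mice is not given in the sources used here. In the HSA-NRTN group replicates 1 and 2 were the males, and in the wild-type group replicates 2 and 5.

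Gene counts per library ran from 1875971 to 6641695, the lowest in HSA-NRTN replicate 2, and 14090 to 19675 genes had a count. Genes took 13.5% of all reads tallied in HSA-NRTN replicate 2 and 23.4% to 42.3% in the other libraries. All 8 motor neuron markers, among them Chat and Isl1, were present, with a summed level of 3281 to 5411 CPM (counts scaled to a common library size) in HSA-NRTN and 2452 to 4088 CPM in wild-type pools. Oligodendrocyte markers summed to 1491 CPM in HSA-NRTN replicate 2 and to 207 to 686 CPM in the others. With about 50 cells a pool and PCR reads without molecular identifiers, counting intervals and floors given here cover counting error only. In such pools, fewer cells expressing a gene and less RNA per cell cannot be told apart.

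Atf3, Sprr1a, Gap43 and Ecel1 were highest together in 1 library, and promoters of these members are shown as a description. Whether their motifs bear on the levels was not tested. RefSeq (GRCm38.p6) gave the 250 bases before the RefSeq start for 7 of the 9 genes, and neither Gap43 nor Stmn4 was among them. Those of Sprr1a, Atf3 and Ecel1 follow, 5′ to 3′ on the minus strand, on which all 3 genes lie. Capitals mark matches, on either strand, to the AP-1 motif TGANTCA, the cAMP response element TGACGTCA, or the core TGACG, which the full element contains.
Sprr1a: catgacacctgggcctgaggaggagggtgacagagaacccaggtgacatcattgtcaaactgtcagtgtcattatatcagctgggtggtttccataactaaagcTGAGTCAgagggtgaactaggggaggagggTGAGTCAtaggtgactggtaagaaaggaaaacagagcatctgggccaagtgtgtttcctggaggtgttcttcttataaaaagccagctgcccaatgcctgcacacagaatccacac
Atf3: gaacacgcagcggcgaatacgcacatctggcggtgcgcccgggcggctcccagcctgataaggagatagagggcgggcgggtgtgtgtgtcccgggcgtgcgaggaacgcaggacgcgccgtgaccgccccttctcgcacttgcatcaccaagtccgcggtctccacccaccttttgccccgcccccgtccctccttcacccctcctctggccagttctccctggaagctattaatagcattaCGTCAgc
Ecel1: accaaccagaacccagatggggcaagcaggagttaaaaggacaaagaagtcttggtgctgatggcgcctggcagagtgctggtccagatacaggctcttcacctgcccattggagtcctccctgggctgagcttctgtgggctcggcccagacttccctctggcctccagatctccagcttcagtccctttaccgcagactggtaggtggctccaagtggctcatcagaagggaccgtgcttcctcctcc
The Sprr1a window, chr3:92485882-92486131, held 2 AP-1 matches, and it was the one window of the 7 with any. Among the 32851 promoters searched over the same length, 6.75% held AP-1, 1.55% the full response element and 17.8% the core. The Atf3 window, chr1:191183334-191183583, lies at an inner start of the longer annotated gene and held 1 core match, as did that of Basp1. The Ecel1 window, chr1:87156357-87156606, and those of Sox11, Klf6 and Gadd45a held none of the motifs. Most of the Ecel1 window lies inside the gene as annotated in GENCODE M21. The windows of Gadd45a, Sprr1a and Klf6 also reach into their annotated genes, less far. A match is a description of letters and not a measured site. On GRCm38 with GENCODE M21, Atf3 (ENSMUSG00000026628) spans chr1:191170296-191218039, Ecel1 (ENSMUSG00000026247) chr1:87147655-87156521, Sprr1a (ENSMUSG00000050359) chr3:92483952-92485895 and Gap43 (ENSMUSG00000047261) chr16:42248442-42340651, all on the minus strand.

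Measured per kilobase of exon, Basp1 had the highest mean of the 9 over all 10 libraries and Atf3 the lowest. Over all 10 libraries, Basp1, a membrane-bound organiser of actin, stood at 110 ± 75.0 CPM per kb (SD, n = 10), above 96% of the 11630 genes tested. Ecel1 followed at 48.0 ± 46.2 CPM per kb, above 90.7% of genes, and Gap43 at 19.1 ± 26.8 CPM per kb. Gadd45a and Klf6 lay at 9.58 ± 4.08 and 8.54 ± 5.57 CPM per kb, while Stmn4, Sox11 and Atf3 lay at 2.45, 2.35 and 1.08 CPM per kb. Sprr1a averaged 3.86 CPM per kb, all of it from 1 library. In the wild-type pools alone the order was Basp1 (109 ± 61.7 CPM per kb, SD, n = 5), Ecel1 (26.7 ± 11.8), Gadd45a (9.46 ± 1.22), Klf6 (9.24), Gap43 (8.81), Stmn4 (1.80), Sox11 (1.60) and Atf3 (0.458), with Sprr1a at 0. There Basp1 stood clear of Ecel1, and Ecel1 of Gadd45a, by more than their SDs, and no other neighbours did. Over all 10 libraries, and in the HSA-NRTN pools alone, no neighbours stood clear in this way. In HSA-NRTN, Basp1 was at 112 ± 94.0 and Ecel1 at 69.4 ± 59.3 CPM per kb (SD, n = 5). Ecel1 was above Basp1 in HSA-NRTN replicates 1 (167 and 158 CPM per kb) and 4 (67.2 and 19.4), and below it in the other libraries.

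**Figure D1:**
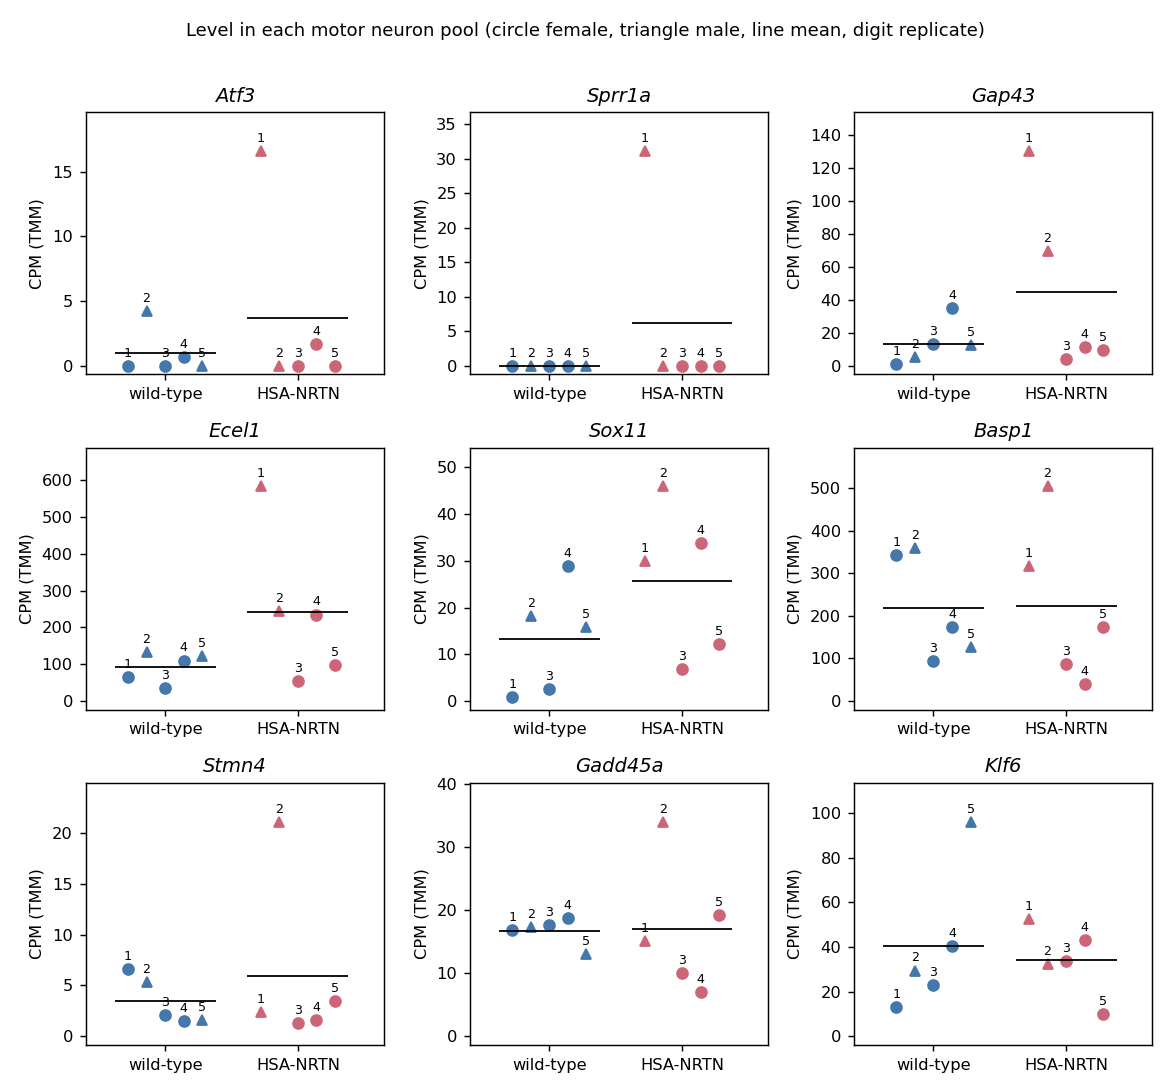
CPM of each of the 9 genes in each library (TMM scaled, linear axes starting near 0), with wild-type in blue, HSA-NRTN in red, circles for females, triangles for males, digits for the replicate and a line for the mean of 5 libraries. Atf3, Sprr1a, Gap43 and Ecel1 peaked in HSA-NRTN replicate 1, and Sox11, Basp1, Stmn4 and Gadd45a in HSA-NRTN replicate 2.

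Between genotypes, none of the axon injury genes passed the test, and Atf3 and Sprr1a had counts in too few libraries to enter it. Of the 7 tested, 6 had a higher and 1 a lower estimate in HSA-NRTN, where 48.6% of all genes were higher, and their median log2 fold change was 0.74, against -0.01 over all 11630 genes. These signs moved with 1 library: without HSA-NRTN replicate 2, 3 of the 7 were positive and 4 negative, with a median of -0.22. The same counts came from limma voom (median -0.13) and from the females alone (median -0.53). By edgeR's quasi-likelihood test with Benjamini-Hochberg adjustment, none of the 7 reached 0.05, where 0.00860% of genes were called (1 gene), and their smallest adjusted p was 0.894. Without adjustment 1 of the 7, Ecel1, had a p under 0.05, as did 4.83% of genes (562), 2.41% in the higher direction. No member's groups were free of overlap, a state reached by 1.25% of genes. The authors' deposited table likewise gave none of the 9 an adjusted p under 0.05, with 1.05% of its genes under it, and its lowest for a member was 0.186, for Ecel1. Each library is 1 animal, so the p-values rest on the spread between animals. The animal numbers in the labels fall in 2 series, and the genotypes are unevenly spread over them. HSA-NRTN replicates 1, 2 and 3 and wild-type replicate 1 were in 1 series, and the other mice in the other. Genotype and series are therefore partly confounded. With series as a covariate, 4 of the 7 were positive and 3 negative, with a median of 0.05.

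Atf3, the injury marker, was absent from most pools. Its 87 counts were 56, 0, 0, 12 and 0 in HSA-NRTN replicates 1 to 5 and 0, 15, 0, 4 and 0 in wild-type replicates 1 to 5. HSA-NRTN replicate 1 thus held 64.4% of them (95% exact Poisson interval of 42.3 to 72.7 counts), and 3 libraries of each genotype held none. In CPM its level was 16.6 in that library, 4.25 in wild-type replicate 2, 1.71 in HSA-NRTN replicate 4 and 0.688 in wild-type replicate 4. A count of 0 allows up to 0.428 to 1.62 CPM, according to the depth of the library (3 counts). With so few libraries above 0, Atf3 fell below the filter on low counts and was not tested. With no such filter its log2 fold change was 1.87 (SE 1.58; adjusted p = 0.612, edgeR quasi-likelihood).

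Sox11, a SoxC transcription factor that supports axon growth in development and after injury, was present in all libraries. It stood at 30.0, 45.9, 6.78, 33.9 and 12.1 CPM in HSA-NRTN replicates 1 to 5. The wild-type replicates held 0.918, 18.1, 2.58, 28.9 and 15.9 CPM. Replicates 1, 2 and 4 of the HSA-NRTN group lay above every wild-type pool, and replicates 3 and 5 lay within their range. The means were 25.7 ± 16.1 and 13.3 ± 11.6 CPM (SD, n = 5 each), with a log2 fold change of 0.94 (SE 0.74; adjusted p = 0.999, edgeR quasi-likelihood).

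Klf6, a zinc finger factor needed for axon regrowth in zebrafish, was the one member with a lower estimate in HSA-NRTN. Its level was 52.8, 32.4, 33.9, 43.2 and 9.86 CPM in HSA-NRTN replicates 1 to 5. In wild-type replicates 1 to 5 it was 13.3, 29.5, 23.2, 40.6 and 96.2 CPM. The groups covered each other, with both the highest pool and a low one in the wild-type group, and the lowest pool in the HSA-NRTN group. The log2 fold change of -0.24 (SE 0.51) turned to 0.37 without wild-type replicate 5.

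Gap43, the growth-associated protein of advancing and regenerating axons, had the largest estimate among the 7 tested genes. It stood at 130, 69.2, 4.03, 11.3 and 9.37 CPM in HSA-NRTN replicates 1 to 5, and at 1.15, 5.38, 13.1, 34.8 and 12.7 CPM in wild-type replicates 1 to 5. Both HSA-NRTN males lay above all other libraries, while the 3 HSA-NRTN females lay inside the wild-type range. The means were 44.7 and 13.4 CPM (n = 5 each), with coefficients of variation of 122% and 96.5%. Its log2 fold change, 1.72 (SE 0.89), had an unadjusted p of 0.0717 and, by edgeR's quasi-likelihood test, an adjusted p of 0.999. It was 0.74 without HSA-NRTN replicate 1, which held 41.7% of the counts of Gap43, and 2.44 without wild-type replicate 4. It was 0.64 with sex as a covariate, 0.60 with a covariate for the 2 series of animal numbers and 0.77 in limma voom.

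Basp1, a relative of GAP43 in function, was the member with the most counts, 8264 in all, and its 2 groups were nearly level. HSA-NRTN replicates 1 to 5 held 318, 504, 87.7, 38.9 and 173 CPM, and wild-type replicates 1 to 5 held 342, 360, 93.8, 174 and 126 CPM. In each group 2 pools were high and 3 low, and the highest and the lowest pool were both HSA-NRTN. The means of 224 ± 189 and 219 ± 124 CPM (SD, n = 5 each) gave a log2 fold change of 0.03 (SE 0.55).

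Stmn4, a neuronal stathmin that binds tubulin, was low. It stood at 2.37, 21.1, 1.28, 1.57 and 3.45 CPM in HSA-NRTN replicates 1 to 5 and at 6.66, 5.38, 2.11, 1.55 and 1.59 CPM in wild-type replicates 1 to 5. HSA-NRTN replicate 2 alone stood apart, on 39 counts, and the other 4 HSA-NRTN pools lay within or below the wild-type range. The log2 fold change was 0.74 (SE 0.91) with that library and -0.67 without it.

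Sprr1a, a small proline-rich protein of skin that damaged neurons make, was seen in 1 library. HSA-NRTN replicate 1 held 105 counts (95% exact Poisson interval 85.9 to 127), or 31.1 CPM, and the other 9 libraries held 0. The 5 wild-type pools together, at 0 counts, allow up to 0.130 CPM. Of 18975 genes with at least 10 counts, 2.57% were seen in 1 library only. Of the 12376 genes with at least 100 counts, 11 were (0.0889%). HSA-NRTN replicate 2 held 8 of these 11, and Sprr1a was the one among them found in HSA-NRTN replicate 1. The other 14 small proline-rich genes listed had no count in any library. Sprr1a was below the filter on low counts. With no such filter its adjusted p for genotype was 0.0888 (edgeR quasi-likelihood), a value that rests on that 1 animal.

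Gadd45a, which answers DNA damage and stress and is induced in axotomised neurons, was the steadiest member in wild-type pools. There it stood at 16.8, 17.3, 17.6, 18.8 and 13.1 CPM, a coefficient of variation of 12.9%, against 44.2% or more for the other members with wild-type counts. In the HSA-NRTN pools it spread over 15.1, 34.0, 10.1, 6.98 and 19.2 CPM, a coefficient of variation of 61.9%, on both sides of the wild-type values. The means were 17.1 ± 10.6 and 16.7 ± 2.15 CPM (SD, n = 5 each), and the difference in spread was not tested. Of its 1764 exon bases, 337 are shared with the antisense gene E230016M11Rik (484 counts). Since the library kit does not mark strand, reads within that shared stretch cannot be told apart between the 2 genes.

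Ecel1, a membrane peptidase of motor neurons that is needed for their terminal branching in the mouse, had the lowest p of the 7. It stood at 583, 245, 53.9, 235 and 98.4 CPM in HSA-NRTN replicates 1 to 5 and at 64.0, 134, 36.6, 110 and 122 CPM in wild-type replicates 1 to 5. Replicates 1, 2 and 4 of the HSA-NRTN group lay above every wild-type pool, and replicates 3 and 5 within their range. The wild-type mean was 93.3 ± 41.3 CPM (SD, n = 5), and the fitted difference was 2.6-fold. Its log2 fold change of 1.38 (SE 0.52) had a p of 0.0174 before and 0.894 after Benjamini-Hochberg adjustment in edgeR's quasi-likelihood test. Without HSA-NRTN replicate 1 it was 0.75 (SE 0.452).

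**Figure D2:**
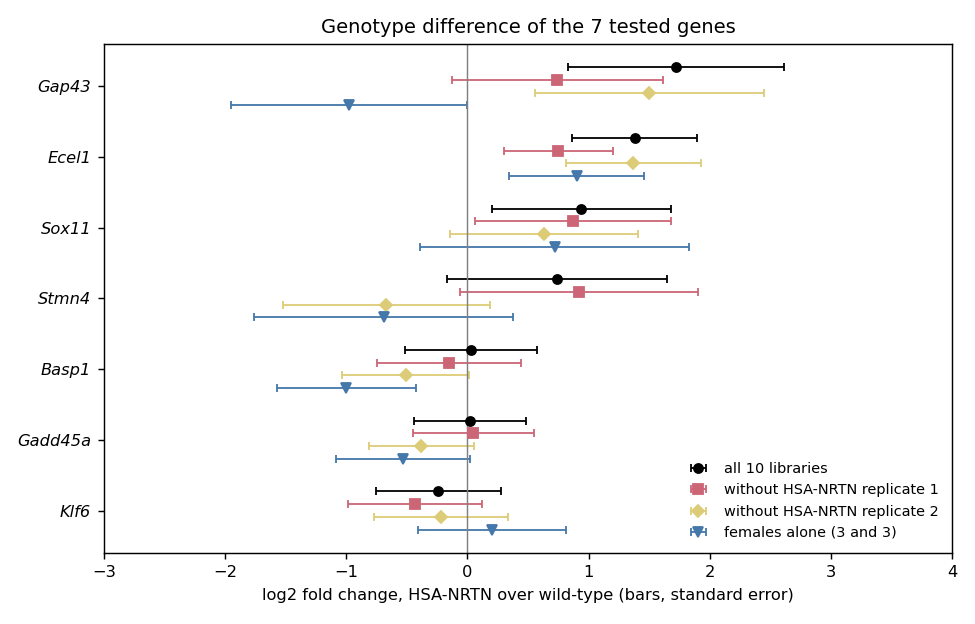
Log2 fold change of HSA-NRTN over wild-type for the 7 tested genes (x axis), from edgeR fits of all 10 libraries (black), without HSA-NRTN replicate 1 (red), without HSA-NRTN replicate 2 (yellow) and of the females alone (blue), with bars for the standard error. Ecel1 and Sox11 stayed above 0 in these 4 fits, and Gap43 went from 1.72 to -0.98 in females alone.

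Both libraries in which most members peaked were from HSA-NRTN males, and they differed in which members they held. HSA-NRTN replicate 1 was the highest library for Atf3, Sprr1a, Gap43 and Ecel1, 4 of the 9, while 8.16% of the 18975 genes with at least 10 counts were highest there. HSA-NRTN replicate 2 was the highest for Sox11, Basp1, Stmn4 and Gadd45a, again 4 of the 9, where 19.1% of those genes were highest. Klf6 peaked in wild-type replicate 5, where 11.2% of genes did. Summed over the 9 genes the level was 1178 CPM in the first, 952 CPM in the second and 189 to 573 CPM in the other 8. Without Basp1 and Ecel1, which dominate that sum, it was 278 and 203 CPM against 38.8 to 139 CPM.

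Other regeneration effectors, proteins such as tubulins, growth cone proteins, adhesion molecules and neuropeptides that injured neurons make, peaked in several libraries. Of the 40 with at least 10 counts, 9 (22.5%) were highest in HSA-NRTN replicate 1, beside 8.16% of all genes. Another 8 were highest in HSA-NRTN replicate 2, beside 19.1% of all genes, and 7 (17.5%) in wild-type replicate 2, beside 6.48%. Among the 9, picked out here after their values were seen, Marcks, a relative of GAP43 and BASP1 in function, stood at 28.5 CPM in HSA-NRTN replicate 1 and at 2.56 to 7.04 CPM in the other 9. The tubulin Tubb2b stood at 16.0 CPM there and at 6.49 CPM or less elsewhere. Cd44, an adhesion receptor, had 49 counts there, 48 in HSA-NRTN replicate 4 and none in the wild-type pools. The neuropeptide Adcyap1, induced in axotomised motor neurons and also picked out after its values were seen, had 148 and 82 counts in HSA-NRTN replicates 1 and 2, 18 in replicate 4, 7 in wild-type replicate 1 and none in the other 6. Scaled for depth, its peak was in HSA-NRTN replicate 2, at 44.3 CPM.

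Of 23 other injury transcription factors with at least 10 counts, 0 peaked in HSA-NRTN replicate 1 and 10 in HSA-NRTN replicate 2, among them Jun, Stat3 and Cebpb. Jun, the partner of ATF3, stood at 167 CPM in HSA-NRTN replicate 1 and 189 CPM in HSA-NRTN replicate 2, next to 125 CPM in wild-type replicate 2 and 23.0 to 65.2 CPM in the other 7. Ddit3, a transcription factor of the unfolded protein response, stood at 7.71 CPM in HSA-NRTN replicate 1 and 0 CPM in HSA-NRTN replicate 2, and peaked at 17.6 CPM in wild-type replicate 3.

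**Figure D3:**
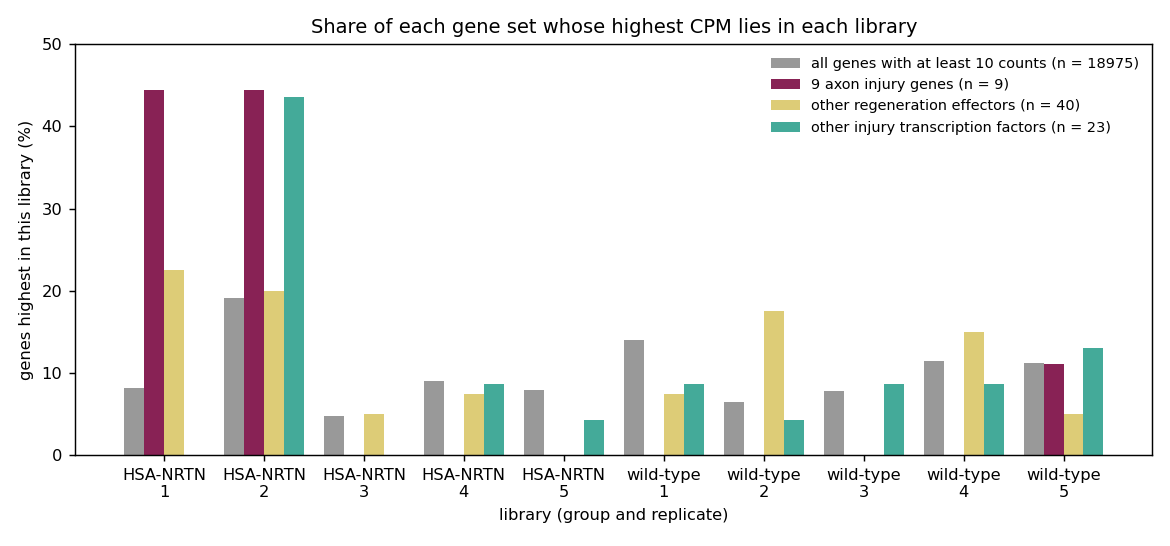
Share of genes (y axis, percent) whose highest CPM lay in each of the 10 libraries (x axis), for all 18975 genes with at least 10 counts (grey), the 9 axon injury genes (purple), 40 other regeneration effectors (yellow) and 23 other injury transcription factors (green). HSA-NRTN replicates 1 and 2 each held the peak of 44.4% of the 9 genes, against 8.16% and 19.1% of all genes.

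Markers of some other cells were also high in one or the other of these libraries, while other marker lists peaked elsewhere. Oligodendrocyte markers were at 286 CPM in HSA-NRTN replicate 1, inside the range of the other libraries, and at 1491 CPM in HSA-NRTN replicate 2, where 6 of the 8 peaked. Endothelial and mural markers summed to 11.0 and 82.1 CPM in these 2 libraries and to 2.82 to 15.6 CPM in the other 8. Of the 82.1 CPM, Rgs5 alone gave 71.9 CPM, while Cldn5 and Cdh5 were at 0 in every HSA-NRTN pool. Astrocyte markers summed to 1338 CPM in HSA-NRTN replicate 2, where 4 of the 8 peaked, and to 654 to 1020 CPM in the other 9. Slc1a2 alone gave 665 of the 1338 CPM, and Aqp4, Slc1a3, Gja1 and S100b peaked in wild-type pools. Pmp22, a myelin protein gene listed as a Schwann cell marker, was at 1713 CPM in HSA-NRTN replicate 1 and at 816 to 1534 CPM elsewhere. Ngfr, also listed there, was at 20.2 and 18.4 CPM in these 2 libraries and at 3.57 CPM or less elsewhere. Inhibitory interneuron markers summed to 101 and 161 CPM in these 2 libraries and to 172 CPM in wild-type replicate 1. Excitatory interneuron markers summed to 150 and 95.1 CPM, and to 300 CPM in wild-type replicate 5. Microglia markers summed to 11.9 and 36.8 CPM, and to 39.8 CPM in HSA-NRTN replicate 4. Motor neuron markers summed to 5411 CPM in HSA-NRTN replicate 1, the highest of the 10, with 4 of the 8 (Slc5a7, Isl1, Prph and Ret) at their peak there. The part of other cell types in the members' values in either library was not tested.

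Since both of these libraries were male, the members were also compared by sex, with genotype in the model. This comparison was chosen after those 2 libraries were seen and includes them, so it gives no separate support. All 7 tested genes had higher estimates in males, with a median log2 difference of 1.20 against -0.01 over all genes, and 49.2% of genes were above 0. In wild-type pools alone, mean CPM in males and females was 9.04 and 16.4 for Gap43, 15.2 and 17.7 for Gadd45a, and 3.48 and 3.44 for Stmn4. Wild-type means of Sox11, Klf6, Basp1 and Ecel1 were higher in males. None reached an adjusted p of 0.05, where 0.00860% of genes were called. Before adjustment, 2 of the 7 had a p under 0.05, as did 11.2% of genes (1302), 4.77% in the higher direction. Ecel1 ran from 122 to 583 CPM in the 4 males and from 36.6 to 235 CPM in the 6 females, with a log2 difference of 1.28 (SE 0.41; unadjusted p of 0.00676, adjusted p = 0.37, edgeR quasi-likelihood). Basp1 stood at 327 ± 156 CPM in males and 152 ± 107 CPM in females (SD), with a log2 difference of 1.20 (SE 0.50; unadjusted p of 0.0296, adjusted p = 0.413, edgeR quasi-likelihood). No member separated all males from all females, as 2.27% of genes did, 1.10% with males higher. Jun, again named after its values were seen, did, at 65.2 CPM or more in males and 57.7 CPM or less in females (log2 difference 1.66, SE 0.336; adjusted p = 0.324, edgeR quasi-likelihood).

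For Gap43 the males that stood high were those of the HSA-NRTN group. Its mean was 99.5 ± 42.9 CPM in HSA-NRTN males (n = 2), 8.22 ± 3.75 CPM in HSA-NRTN females (n = 3), 9.04 ± 5.17 CPM in wild-type males (n = 2) and 16.4 ± 17.0 CPM in wild-type females (n = 3). Gap43 and Ecel1 were the members for which both HSA-NRTN males lay above the other 8 libraries, as 4.70% of the 11630 genes did. In the test of the interaction itself, the genotype difference of Gap43 was larger in males by 4.45 on the log2 scale (SE 1.34; unadjusted p of 0.0053, adjusted p = 0.922, edgeR quasi-likelihood). None of the 7 passed, 0.00% of genes were called, and 5.14% (598) had a p under 0.05, 2.55% with a positive estimate. With no filter on low counts, the same test called Gap43 for the interaction (adjusted p = 0.00591) and Ecel1 (0.00222), Basp1 (0.00696) and Sprr1a (0.0156) for sex. The calls of Gap43, Ecel1 and Basp1 were absent in the fits with the filter, in DESeq2 and in limma voom. Sprr1a, whose counts come from 1 animal, was not tested with the filter or in limma voom and was not called in DESeq2 (adjusted p = 0.244). Within one sex, the log2 fold change for genotype was 3.44 in males (adjusted p = 0.48) and -0.98 in females (adjusted p = 0.998) for Gap43, and 1.69 and 0.90 for Ecel1 (adjusted p = 0.637 and 0.998, edgeR quasi-likelihood). With 2 males a group, sex and single animals cannot be told apart. Both HSA-NRTN males came from 1 series of animal numbers and both wild-type males from the other. Among males, genotype and series therefore cannot be told apart either, and the interaction estimates draw on that same male contrast.

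Around the members, the wider injury programme gave no called gene for genotype in any of the lists examined. Of 20 tested injury transcription factors, 13 had a positive and 7 a negative estimate (median log2 fold change 0.20, none with p under 0.05), and of 29 tested regeneration effectors 19 and 10 (median 0.19). Nts, the neuropeptide neurotensin, was the 1 effector of the 29 with an unadjusted p under 0.05, beside 4.83% of all genes. It stood at 140 ± 67.2 CPM in HSA-NRTN and at 45.9 ± 21.2 CPM in wild-type (SD, n = 5 each), with a log2 difference of 1.60 (SE 0.43; unadjusted p of 0.00207, adjusted p = 0.422, edgeR quasi-likelihood). Its peak was in HSA-NRTN replicate 4, at 219 CPM, and the lowest HSA-NRTN pool, at 36.6 CPM, lay among the wild-type values.

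Injury kinases and axon survival genes gave 4 positive and 13 negative estimates among 17 tested (median -0.24), where 48.6% of all genes were positive. Of the 17, 1 had a p under 0.05 without adjustment, beside 4.83% of all genes. Mapk8ip3, a scaffold that carries JNK signals along the axon, stood at 82.4 ± 16.7 CPM in HSA-NRTN and 141 ± 28.9 CPM in wild-type pools, with a log2 fold change of -0.78 (SE 0.24; unadjusted p of 0.00554, adjusted p = 0.651, edgeR quasi-likelihood). Its wild-type pools ran from 96.2 to 161 CPM, and HSA-NRTN replicate 1, at 110 CPM, lay inside that range. Genes known to fall after motor axotomy gave 4 positive and 5 negative estimates among 9 (median -0.28). The 4 were the acetylcholine genes Chat (0.38), Slc5a7 (0.38), Slc18a3 (0.43) and Ache (0.49), and the 5 were Nefl, Nefm, Nefh, Slc12a5 and Vamp1, at -0.28 to -0.54 on the log2 scale. Intrinsic brakes on axon growth gave 5 and 7 among 12 tested (median -0.04).

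Within their families the members took different places. Among the stathmins, Stmn3 and Stmn2 stood at 998 and 569 CPM per kb, Stmn1 at 8.51 and Stmn4 at 2.45 CPM per kb. Stmn2, a tubulin-binding protein of growing axons, was close to level between genotypes, at 3008 ± 168 CPM in HSA-NRTN and 3372 ± 413 CPM in wild-type (SD, n = 5 each; log2 fold change -0.16, SE 0.18). Basp1 and Gap43 exceeded Marcks, at 1.73 CPM per kb. Sox11 was ahead of Sox12 (0.793 CPM per kb) and Sox4 (0.0460 CPM per kb). Ecel1 was ahead of the other M13 peptidases, Ece2 at 4.74 and Ece1 at 2.94 CPM per kb. Gadd45a, Gadd45b and Gadd45g lay close together at 9.58, 8.35 and 4.93 CPM per kb, as did Klf7, Klf6 and Klf9 at 8.93, 8.54 and 7.81 CPM per kb.

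**Figure D4:**
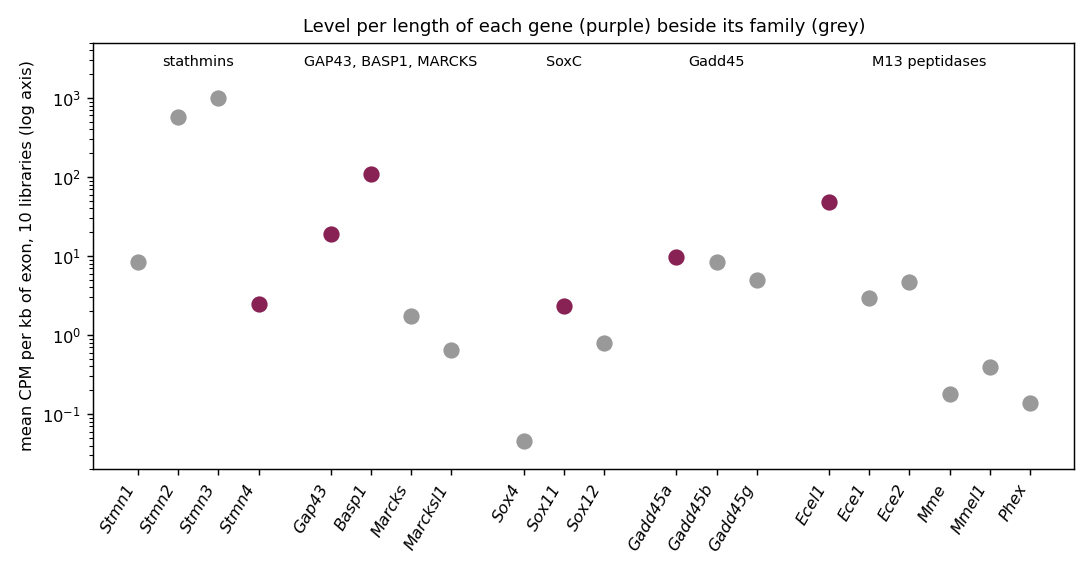
Mean level per length over the 10 libraries (y axis, CPM per kb of exon, log axis) for 6 of the members (purple) and their relatives (grey), grouped by family along the x axis. Stmn4 is the lowest of the 4 stathmins, at 2.45 CPM per kb, and Ecel1 the highest of the M13 peptidases, at 48.0 CPM per kb.

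Of the relatives, Fos and Klf3 had an unadjusted p under 0.05 for genotype, as did 4.83% of all genes. Fos was 1 of 2 Atf3-like factors tested, and Klf3 was 1 of 8 Kruppel-like factors tested, Klf6 included. Fos, an immediate early partner of JUN, stood at 29.4 ± 12.9 CPM in HSA-NRTN and at 15.7 ± 3.97 CPM in wild-type (SD, n = 5 each), with a log2 fold change of 0.90 (SE 0.41; unadjusted p of 0.0433, adjusted p = 0.999, edgeR quasi-likelihood). HSA-NRTN replicate 1, the library with Atf3 and Sprr1a, had the lowest Fos of its group, 13.3 CPM. Klf3, a Kruppel-like repressor, stood at 23.0 ± 10.3 and 57.6 ± 49.1 CPM, with a log2 fold change of -1.31 (SE 0.50; unadjusted p of 0.0191, adjusted p = 0.91, edgeR quasi-likelihood), and wild-type replicate 1 alone reached 143 CPM.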

How the data were processed

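Motor neuron pools of 10 mice, 1 Smart-seq2 library each, were grouped by genotype and sex from the labels. Per the submitters' processing notes, the authors used STAR 2.5.0a for alignment, HTSeq for counting and the build GRCm38.p6. Neither the annotation release nor the counting options are given in the sources used here. Raw counts were deposited per library for 51912 genes, 92 spike-in sequences and 5 tally entries, and the latter kinds entered no library size or test. The authors also deposited a normalised signal, which equals those counts over 1 size factor per library (relative spread 9.71e-15), and their DESeq2 comparison, with log2 fold changes, a test statistic as a score, and p-values.

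The counts were tested in R 4.3.3 by edgeR 4.0.16 (quasi-likelihood F test), after filterByExpr for genotype, which kept 11630 genes and 7 of the 9 members, and TMM scaling. Genotype, sex and their interaction were tested in turn, with Benjamini-Hochberg adjustment over all genes tested and a threshold of 0.05. Standard errors came from the F statistic. The fits were checked on simulated data. DESeq2 1.42.0 and limma 3.58.1 served as alternatives, beside other scalings and filters, covariates, single sexes and each library left out. Levels are CPM on TMM-scaled library sizes, or CPM per kb over all exons of GENCODE M21 (GRCm38), as mean ± SD. At 1875971 to 6641695 gene counts per library, low genes are subject to the sampling of molecules.

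The members and gene lists were chosen with earlier results of these data known. All members were named, with up to 3 genes per other list, marker lists not included, of lowest genotype p, if under 0.05, relatives by their level, and for Atf3 and Basp1 the 3 genes of most like pattern. Marcks, Tubb2b, Cd44, Adcyap1, Jun, Stat3, Cebpb, Ddit3, the genes known to fall after axotomy and the marker genes given singly were named after their values were seen.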

Additional observations from a re-analysis of the deposited data

Results flagged for a closer look

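In 4 of 18 sets of 5 libraries (each of the 9 genes in each genotype), 1 library lay far from the other 4, with a gap to the nearest above 0.71 of the whole range. Chance alone flags about 1 in 20 such sets where values are normally distributed, which the mostly empty sets of Atf3 and Sprr1a are not. The wild-type set of Sprr1a, all at 0, had no range. Atf3 stood at 16.6 CPM in HSA-NRTN replicate 1, where the other 4 HSA-NRTN libraries held 0 to 1.71 CPM. In the wild-type group Atf3 stood at 4.25 CPM in replicate 2, where the others held 0 to 0.688 CPM. Sprr1a stood at 31.1 CPM in HSA-NRTN replicate 1, with the other 4 at 0. Stmn4 stood at 21.1 CPM in HSA-NRTN replicate 2, with the others at 1.28 to 3.45 CPM. Both HSA-NRTN libraries were male, as was the wild-type one.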

How the results depend on the processing

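None of the 7 tested members was called for genotype under any of the 21 alternatives. Atf3 and Sprr1a, which the filter removed, had values with no filter and in DESeq2, and Atf3 also in males alone, with no call. Of all genes, 1 was called in the main test, 81 with no filter on low counts, 126 in DESeq2, 3 in limma voom and 5 with sex as a covariate. A covariate for the 2 series of animal numbers in the labels left 0, as did either sex on its own, and 0 to 13 with 1 library left out. With no filter, 3 members were called for sex and 1 for the interaction. Estimates for genotype crossed 0 as follows, and the cause was not tested. With no filter, Basp1 and Gadd45a were at -0.02. In limma voom, Basp1 was at -0.46, Stmn4 at -0.13 and Gadd45a at -0.41. With sex as a covariate, Basp1 was at -0.32 and Gadd45a at -0.06, and with the animal numbers at -0.60 and -0.15. In females alone, Klf6 was at 0.20, Gap43 at -0.98, Basp1 at -1.0, Stmn4 at -0.69 and Gadd45a at -0.53. With HSA-NRTN replicate 2 left out together with wild-type replicate 1, Basp1 and Stmn4 were at -0.29 and Gadd45a at -0.38. With 1 library left out, Klf6 ran from -0.45 to 0.37, Basp1 from -0.51 to 0.30, Stmn4 from -0.67 to 1.09 and Gadd45a from -0.38 to 0.22. For sex, Gadd45a ran from -0.0021 without HSA-NRTN replicate 2 to 0.62. For the interaction, Sox11 was at -0.48 in limma voom. There, with 1 library left out, Sox11 ran from -2.17 (without wild-type replicate 4) to 1.36, Klf6 from -1.35 to 0.31 (without wild-type replicate 5) and Ecel1 from -0.006 (without HSA-NRTN replicate 1) to 1.58. Over the longest transcript in place of all exons, Gadd45a was at 13.8 in place of 9.58 CPM per kb. No paired analysis was possible because the labels give no shared replicate numbers, and the numbers used here follow record order. A library at 0 counts allows a level of up to 1.62 CPM in HSA-NRTN replicate 2, the library with the fewest counts.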

Other observations

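Across the 10 libraries, the genes whose log2 CPM followed Atf3 most closely, of 11719 with enough counts, were Actr1a (Pearson r = 0.955), Arhgap31 (0.931) and Dhcr7 (0.927). For Atf3 that pattern is mainly 1 high library and 6 at 0. For Basp1 they were Map6 (0.962), Gm13339 (0.960) and Cds2 (0.943). These values describe libraries that share depth and capture, and carry no test.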
